A study of Triticum aestivum with 4 samples.

Results

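Transcription factors bind short DNA elements or other regulators and set how strongly their target genes are transcribed. Plants carry large families of them, among them the ethylene response factors (ERF), the auxin response factors with their Aux/IAA repressors, and the NAC, MYB, bHLH, bZIP, WRKY and GRAS families. Several of these families are known to relay abscisic acid, ethylene, jasmonate and osmotic signals when soil dries. The genes described here are the transcription factors of drought-stressed wheat outside 12 symbols that were set aside: WRKY11, WRKY18, WRKY65, WRKY69, WRKY70, NAC100, ATAF1, MYB305, MYB48, HSFC1, DREB1A and HB-7. A member was an assembled transcript (isotig) listed under a Gene Ontology category whose name contains "transcription factor activity", with its best match in Arabidopsis thaliana at an E-value of 0.001 or less. Isotigs with the same Arabidopsis match were joined into 1 gene. This gave 493 genes of 9199 in roots (1048 isotigs of 32085) and 317 of 7012 in leaves (584 isotigs of 19899), or 573 genes in either tissue and 237 in both. At the edge of the E-value limit lay NAC036 in roots and GBF4 in leaves, both at 0.001, with 2 and 3 reads and 0 and 5 reads in the control and drought library. The nearest transcripts outside it, at 0.002, matched AT2G22200 and WRKY60 and held 5 and 5 and 2 and 4 reads.

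The plants were wheat (Triticum aestivum) of the cultivar MGS1 Aliança, 3 to a pot, harvested at tillering when 5 weeks old. Control pots stood at 100% of field capacity throughout, and drought pots stood at 75% for 2 weeks and then went 3 weeks without water. The plants of 1 pot were pooled, with leaves and roots taken apart, so root and leaf libraries of a condition may come from the same plants. The root control, root drought, leaf control and leaf drought libraries are 1 pool each, and no condition had a replicate. Every test below therefore compares 2 libraries and not 2 conditions, and its intervals cover counting error only. Bulk tissue was sequenced, so fewer cells of a type and less RNA per cell cannot be told apart.

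Summed over genes, the root control library held 108532 counted reads and the root drought library 95923, and the leaf control and drought libraries held 83357 and 62632. Members were read no more deeply than other genes, with a median of 10 reads over both root libraries and 8 over both leaf libraries, the same medians as over all genes. In roots at least 14 control reads against 0, or 12 drought reads against 0, were needed for a call, and in leaves 15 and 11. Of 8 symbols of root transport genes used as tissue markers (NRT2:1 and NRT2.1 name the same gene), 5 were found in the root libraries, and their summed reads went from 208 to 38 (0.192% to 0.0396% of gene reads), with the tonoplast aquaporin TIP2;3 at 98 and 0 and the nitrate transporter NRT2:1 at 14 and 0. The leaf marker CA2 was at 25 and 1 there and the other 7 leaf markers were not found. In the leaf libraries 7 of 8 photosynthesis markers were found, and their share of gene reads went from 13.1% to 2.48%. The part of these shifts in the values below was not tested.

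One feature of the counts touches several root members. The assembler groups similar transcripts of 1 gene, or of several, into an isogroup, and a read on a stretch that several of these isotigs have in common is counted in each of them. Where isotigs of 1 isogroup matched different Arabidopsis genes, the same reads therefore stood in both genes. This held for 61 of the 493 root members and 26 of the 317 leaf members, and for 13 of the root members called below but for 0 of those called in leaves. The gene names are those of the nearest Arabidopsis sequence, with a median identity of 54% in roots and 57% in leaves (60% and 63% over all genes), so near relatives within a family, and the copies from the subgenomes of wheat, could not be told apart.

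In roots 13 members rose and 23 fell in the drought library (MARS model of DEGseq, a test of the ratio of 2 counts given their mean, unadjusted p under 0.001). Over all root genes 3.63% rose and 5.16% fell, and the member shares were 2.64% and 4.67%. Among genes with at least 10 reads, 254 members were measured, of which 5.12% rose and 9.06% fell, against 6.98% and 9.93% of 4785 genes. The 12 symbols set aside held 5 further genes that rose and 6 that fell, so that with them 9.31% of 505 transcription factors were called in either direction, against 8.79% of all genes. With the total reads of each library as totals, 8 members rose and 26 fell, and with the sums of the isotig columns 7 and 30. Over all root genes these counts were 270 and 548, and 220 and 650. The median log2 ratio of drought to control, over members with at least 10 reads, was -0.21, against 0.02 over all such genes. The ratio of the middle member thus lay slightly below that of the middle gene, a difference of -0.23 on the log2 scale.

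**Figure D1:**
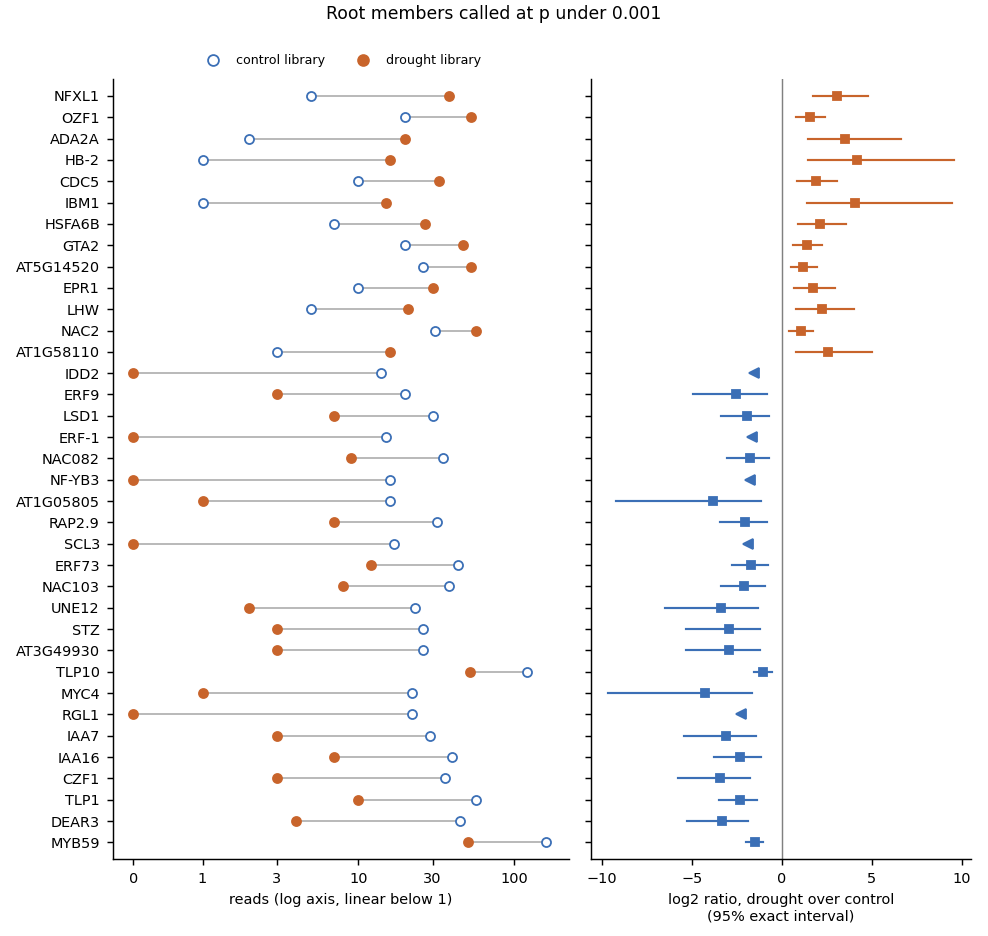
Left, reads in the root control library (open) and the root drought library (filled) of the 36 members called in roots, on a log axis that is linear below 1. Right, the log2 ratio of drought to control after division by the library sums, with its 95% exact interval (arrowheads mark the upper limit where the drought library held no read). The 13 members that rose held 1 to 31 control reads and the 23 that fell held 14 to 161.

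Over all root genes with at least 10 reads, 2422 were higher and 2363 lower in the drought library, and over the members 115 and 139. The split varied from family to family. Among the ERF, ethylene and RAV factors with at least 10 reads, 4 were higher and 17 lower in the drought library, with a median log2 ratio of -0.96. Auxin response factors and Aux/IAA repressors had 2 higher and 11 lower, with a median of -1.24, and NAC factors had 4 and 12 with a median of -0.84. GRAS regulators had 2 higher and 8 lower, and WRKY factors 2 higher and 5 lower. On the other side stood chromatin proteins and transcription cofactors, with 19 higher and 3 lower and a median of 0.85, and the heat stress factors, with 3 higher and 0 lower. Zinc finger proteins split evenly at 20 and 19, bZIP factors at 10 and 9 and bHLH factors at 10 and 11. These are counts and medians of 1 pair of libraries, without a test of a family. They leave out the 12 symbols set aside, among them WRKY, NAC, MYB and heat stress factors that were called in roots.

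**Figure D2:**
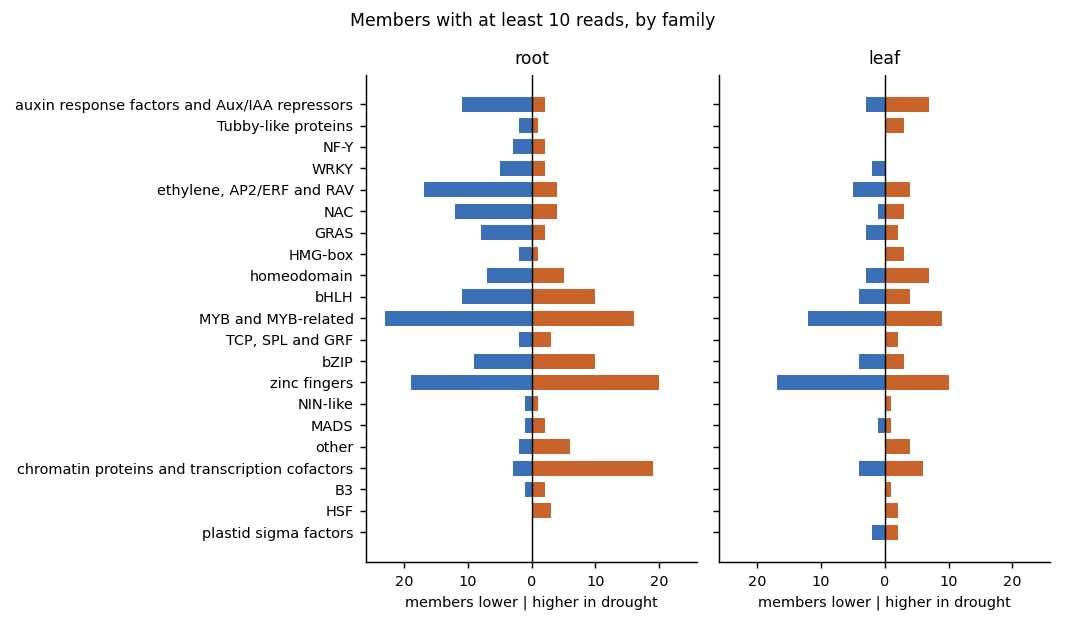
Members with at least 10 reads over both libraries of a tissue, by family, counted to the right when higher and to the left when lower in the drought library after division by the sums of gene counts. In roots the chromatin proteins and cofactors lie mostly to the right (19 and 3) and the ERF group mostly to the left (4 and 17).

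The ERF and ethylene group counted 40 root genes, of which 0 rose and 5 fell. For this and the family counts below, the shares over all root genes were 3.63% and 5.16%. DEAR3 (AT2G23340), an AP2-domain protein of the DREB type, had 45 control and 4 drought reads, 9.94-fold lower (95% interval 3.63 to 38.1). RAP2.9 (AT4G06746), its close relative, had 32 and 7 reads, 4.04-fold lower (1.75 to 10.9). Their main isogroup is the same one, with 30 and 4 reads counted for DEAR3 and 27 and 3 for RAP2.9, and outside it DEAR3 had 15 and 0 reads and RAP2.9 had 5 and 4. ERF73 (AT1G72360), known in Arabidopsis as a factor of the hypoxia response, had 44 and 12 reads, 3.24-fold lower (1.68 to 6.74). One of its isogroups had 18 control reads and 0 drought reads, and the other 26 and 12. ERF-1 (AT4G17500), an ethylene-responsive activator, went from 15 reads to 0, at least 4.42-fold lower against a floor of 3 reads. Counting error in the control library does not enter that figure, and the exact 95% limit was 3.17-fold lower. ERF9 (AT5G44210), a repressor of the same family, had 20 and 3 reads, 5.89-fold lower (1.75 to 31.0).

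Not every ERF gene with many reads was called as lower. RAP2.4 (AT1G78080) had 77 control and 47 drought reads, 1.45-fold lower with an interval that included no difference (0.99 to 2.13). RAP2.2 (AT3G14230), an ERF of the hypoxia-linked subgroup VII, had 49 and 75 reads, 1.73-fold higher (1.19 to 2.54), and was not called. Its isogroups went separate ways: the first had 16 and 49 reads, and was called on its own, the second 18 and 21, and the third 15 and 5. ERF7 (AT3G20310), a repressor linked to abscisic acid responses, was the only member whose isogroups passed the threshold in opposite directions. Its 52 and 35 reads were made of isogroups with 24 and 5 reads, which fell, 5 and 23 reads, which rose, 22 and 6 reads, and 1 and 1. Over the whole gene the ratio was 1.31-fold lower (0.84 to 2.08).

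**Figure D3:**
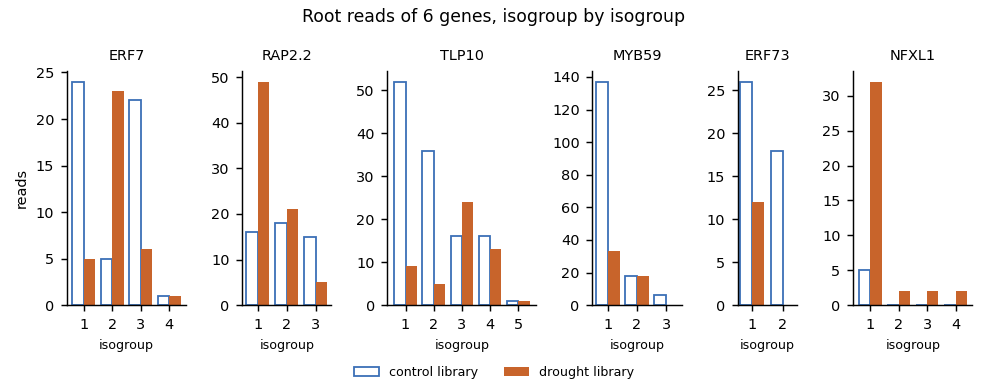
Reads of the root control (open) and root drought library (filled) in each isogroup of 6 genes, ordered by total reads; each panel has its own axis from 0. ERF7 and RAP2.2 hold isogroups that go in opposite directions, TLP10 has 2 isogroups at 52 and 9 and at 36 and 5 reads beside others that hardly differ, and NFXL1 rests mainly on 1 isogroup with 5 and 32 reads.

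Auxin signalling genes of roots leaned the same way as the ERF genes. Aux/IAA proteins are repressors that auxin removes, and auxin response factors (ARF) are the DNA-binding partners they hold back. IAA16 (AT3G04730) had 40 and 7 reads, 5.05-fold lower (2.24 to 13.4), over 5 isogroups, of which the largest held 22 and 2. IAA7 (AT3G23050) had 29 and 3 reads, 8.54-fold lower (2.65 to 43.8), with 7 and 0 of them in an isogroup shared with IAA8. These were the 2 calls among 19 genes of the group. ARF2 (AT5G62000), the group's most-read gene, had 40 control and 57 drought reads, 1.61-fold higher (1.06 to 2.48), which did not pass the threshold.

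The GRAS family holds the DELLA repressors of gibberellin responses and their relatives. RGL1 (AT1G66350), a DELLA protein, went from 22 reads to 0, at least 6.48-fold lower against the floor (exact 95% limit 4.84). SCL3 (AT1G50420), a GRAS protein that counters DELLA action in Arabidopsis, went from 17 reads to 0, at least 5.01-fold lower against the floor (exact 95% limit 3.65), over 3 isogroups with 10, 5 and 2 control reads. Both were without a read in the drought library, and they were the only calls among 20 GRAS genes. The other DELLA genes, chosen after their values were seen, had 28 and 16 reads (RGA1) and 24 and 14 (GAI), neither past the threshold. PAT1 (AT5G48150), a GRAS protein of phytochrome A signalling and the most-read of the family, had 36 and 24 reads.

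Among 37 bHLH genes, 3 fell and 1 rose. MYC4 (AT4G17880), an activator of jasmonate responses, had 22 control reads and 1 drought read, 19.4-fold lower with a wide interval (3.14 to 802). UNE12 (AT4G02590) had 23 and 2 reads, 10.2-fold lower (2.51 to 88.9), and AT1G05805 had 16 and 1, 14.1-fold lower (2.2 to 593). LHW (AT2G27230), which is needed for the vascular pattern of the Arabidopsis root, had 5 and 21 reads, 4.75-fold higher (1.74 to 16.1), and each of its 3 isogroups held more drought than control reads. ILR3 (AT5G54680), an iron-deficiency regulator and the most-read bHLH gene, had 33 and 25.

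NAC genes left among the members were lower more often than higher, and the calls went both ways. NAC100 and ATAF1, which were set aside, both rose in roots, with 13 and 187 and with 45 and 97 reads. The count of NAC genes higher and lower leaves them out, and it is a count of genes and not of reads. NAC103 (AT5G64060), linked in Arabidopsis to endoplasmic reticulum stress, had 38 and 8 reads, 4.20-fold lower (1.93 to 10.4). NAC082 (AT5G09330), known from ribosomal stress, had 35 and 9, 3.44-fold lower (1.62 to 8.13), but both genes rest on the same single isogroup and their reads are largely the same. NAC2 (AT5G04410) had 31 and 57 reads, 2.08-fold higher (1.32 to 3.33). Its isogroups held 24 and 35, 6 and 20 (shared with NAC014) and 1 and 2 reads, all with more in the drought library. NF-YB3 (AT4G14540), a subunit of the CCAAT-binding NF-Y complex, went from 16 reads to 0, at least 4.71-fold lower against the floor (exact 95% limit 3.41), the only call among 16 NF-Y genes.

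Of 70 zinc finger genes in roots, 2 rose and 5 fell. CZF1 (AT2G40140), a CCCH-type protein induced by salt in Arabidopsis, had 36 and 3 reads, 10.6-fold lower (3.35 to 53.8), and both of its isogroups were lower, at 23 and 3 and at 13 and 0. STZ (AT1G27730), a C2H2 repressor induced by salt, drought and cold in Arabidopsis, and its relative AT3G49930 each had 26 and 3 reads, 7.66-fold lower (2.35 to 39.5). The 2 genes are 1 set of reads, since their isotigs belong to 1 isogroup that also matched AT3G05760. LSD1 (AT4G20380), a negative regulator of cell death, had 30 and 7 reads, 3.79-fold lower (1.63 to 10.2), with all 3 of its isogroups lower. IDD2 (AT3G50700) went from 14 reads to 0, at least 4.12-fold lower against the floor (exact 95% limit 2.93).

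The root member with the smallest p among those that rose was also a zinc finger gene. NFXL1 (AT1G10170), a NF-X1-type protein known from salt and osmotic stress in Arabidopsis, had 5 control and 38 drought reads, 8.60-fold higher (3.38 to 28.0). OZF1 (AT2G19810), a CCCH-type protein linked to oxidative stress, had 20 and 53 reads, 3.00-fold higher (1.76 to 5.30), all in 1 isogroup. AT5G58620, the most-read zinc finger gene of roots, had 67 and 30 reads, 1.97-fold lower (1.27 to 3.15), and did not pass the threshold here, though it passed with each of 4 other library totals.

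MYB and MYB-related genes, 65 in roots, gave 2 that rose and 1 that fell. MYB59 (AT5G59780), known in Arabidopsis from root growth and nutrient transport, had the most reads of all members: 161 control and 51 drought reads, 2.79-fold lower (2.02 to 3.90). Of these, 137 and 33 lie in an isogroup shared with MYB48, one of the symbols set aside, and outside it the gene had 18 and 18 reads in 1 isogroup and 6 and 0 in another. The fall of MYB59 is therefore that of an isogroup that also counts for MYB48. CDC5 (AT1G09770), a MYB-type protein of the spliceosome, had 10 and 33 reads, 3.73-fold higher (1.80 to 8.49). EPR1 (AT1G18330), a clock-related MYB, had 10 and 30, 3.39-fold higher (1.62 to 7.78), of which 10 and 19 are shared with RVE2 and 0 and 11 are its own. LHY (AT1G01060), a core factor of the circadian clock, had 50 and 43 reads, 1.03-fold lower (0.67 to 1.58).

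Tubby-like proteins, membrane-tethered F-box proteins that are counted as transcription factors, had 5 root genes. TLP1 (AT1G76900) had 57 and 10 reads, 5.04-fold lower (2.55 to 11.1), and TLP10 (AT1G25280) 121 and 52, 2.06-fold lower (1.47 to 2.90). Nearly all reads of TLP1 (53 and 9) lie in an isogroup that is counted for TLP10 as well (52 and 9). Without it TLP10 keeps an isogroup at 36 and 5 reads, which fell on its own, beside others at 16 and 24 and at 16 and 13. TLP7 (AT1G53320) had 24 and 22 reads.

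Chromatin proteins and cofactors, 39 root genes, gave 3 that rose and 0 that fell. ADA2A (AT3G07740), a partner of histone acetyltransferases, had 2 control and 20 drought reads, 11.3-fold higher (2.75 to 99.8). IBM1 (AT3G07610), a histone demethylase that protects gene bodies from silencing marks, had 1 and 15, 17.0-fold higher (2.61 to 714). GTA2 (AT4G08350), an SPT5-type elongation factor, had 20 and 47 reads, 2.66-fold higher (1.55 to 4.74). SWP (AT3G04740), a Mediator subunit of the group chosen after its values were seen, was not called and had 9 and 25 reads, 3.14-fold higher (1.42 to 7.65). In sum the group held 0.23% of the gene reads of the control library and 0.44% of those of the drought library.

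The other root genes that rose belong to several families. HB-2 (AT4G16780), a homeodomain-leucine zipper protein of the shade response, had 1 and 16 reads, 18.1-fold higher (2.81 to 759). HSFA6B (AT3G22830), a heat stress factor that acts downstream of abscisic acid in Arabidopsis, had 7 and 27, 4.36-fold higher (1.85 to 11.9), and each of its 5 isogroups held more drought than control reads. AT1G58110, a bZIP gene, had 3 and 16 reads, 6.03-fold higher (1.73 to 32.3). AT5G14520, annotated as a pescadillo-related protein of ribosome formation rather than a DNA-binding factor, had 26 and 53, 2.31-fold higher (1.42 to 3.84), all in an isogroup shared with AT4G28990. NAC2, EPR1, LHW, AT5G14520 and AT1G58110 were not called with the total reads of each library or with DESeq2 size factors.

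None of the 22 WRKY genes left after 5 WRKY symbols were set aside was called in roots, whereas all 5 of those set aside fell there, so the absence of calls follows from the choice of members. The most-read of those left, WRKY33 (AT2G38470), a regulator of defence, had 22 and 10 reads, 1.94-fold lower (0.88 to 4.60). Most-read members of other families were not called either. Of the 34 bZIP genes, BZIP9 (AT5G24800) had most reads, at 34 and 34. BLH6 (AT4G34610) led the homeodomain genes with 61 and 39 reads, HSL1 (AT4G32010) the B3 genes with 28 and 45, AP1 (AT1G69120) the MADS genes with 35 and 24, SPL14 (AT1G20980) the SPL group with 17 and 25, HMGB2 (AT1G20693) the HMG-box genes with 49 and 35, AT1G64530 the NIN-like genes with 26 and 17, NF-YA9 (AT3G20910) the NF-Y genes with 12 and 12, and ASIL2 (AT3G14180) the trihelix genes with 4 and 3.

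Counting each isogroup once, for the match of its isotig with most reads, was added after the data were seen, to set the shared reads aside. In roots 13 of 477 members then rose and 18 fell, against 316 and 439 of 8999 genes. Of those 13 and 18 members, 12 and 17 were among the calls above. MYB59 was left with 24 and 18 reads, TLP10 with 69 and 43, RAP2.9 with 5 and 4 and EPR1 with 0 and 11, and none of these was called. STZ, AT3G49930 and NAC082 kept no isogroup of their own. DEAR3, TLP1 and NAC103 kept their reads and fell, SWP now rose (7 and 24 reads), and TGA9, a bZIP factor, now fell (19 and 3). In leaves 5 of 309 members rose and 3 fell when counted so, against 334 and 173 of 6877 genes.

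In leaves 5 members rose and 2 fell of 317, or 1.58% and 0.631%, against 5.06% and 2.58% of all leaf genes. With at least 10 reads, 135 members remained, of which 3.70% rose and 1.48% fell, against 11.9% and 6.09% of 2971 genes. The 9 measured symbols set aside gave 3 further genes that rose and 1 that fell, and with them 3.37% of 326 transcription factors were called, against 7.64% of all genes. The median log2 ratio of members with at least 10 reads was 0.15, and over all such genes it was 0.49, a difference of -0.35. Since the middle leaf gene itself lay at 0.49 after division by the sums of gene counts, the number of members on either side depended on the library totals used. With the total reads of each library 3 members rose and 7 fell, with TMM scaling (edgeR) 2 and 8, with the size factors of DESeq2 3 and 7, and with the sums of the isotig columns 8 and 0. Over all 7012 leaf genes, the same 4 totals gave 238 and 250, 173 and 318, 210 and 271, and 425 and 163.

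OZF1 rose in leaves under each of these totals: it had 3 control and 33 drought reads, 14.6-fold higher (4.59 to 74.6). The same held for AT5G56840, a MYB-related gene, with 3 and 22 reads, 9.76-fold higher (2.93 to 50.9). HMG (AT3G28730), the SSRP1 subunit of the FACT histone chaperone, had 4 and 20 reads, 6.65-fold higher (2.23 to 26.8), and was not called with TMM. TLP1 had 6 and 20 reads, 4.44-fold higher (1.72 to 13.5), spread over 4 isogroups with at most 11 drought reads each. GBF3 (AT2G46270), a bZIP factor that binds G-box elements and responds to abscisic acid, had 4 and 16, 5.32-fold higher (1.72 to 21.9). TLP1 and GBF3 were called with the sums of gene counts and of isotig columns, and not with the other 3 totals.

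Both leaf genes that fell had the same counts. REV (AT5G60690), a class III homeodomain factor of leaf polarity and vascular development, had 30 control and 6 drought reads, 3.76-fold lower (1.54 to 11.0), in 1 isogroup. AT2G03500, a MYB-related gene of the G2-like type, had 30 and 6 reads in 2 isogroups, at 15 and 5 and at 15 and 1. Neither passed the threshold with the sums of the isotig columns or with Fisher's exact test.

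Some leaf members missed the threshold with the sums of gene counts but passed as lower with other totals. These include regulators of light and flowering responses. COL4 (AT5G24930), a B-box protein of the CONSTANS-like group, had 89 and 40 reads, 1.67-fold lower (1.14 to 2.49), COL5 (AT5G57660) had 39 and 12, 2.44-fold lower (1.25 to 5.12), and AT1G25440, of the same type, had 36 and 12, 2.25-fold lower (1.15 to 4.76). TRY (AT5G53200), a small MYB repressor of trichome formation, had 17 and 2 reads, and CBF1 (AT4G25490), a cold-response factor of the DREB type, 14 and 1. These 5 genes passed with the library reads, TMM and size factors, and not with the sums of gene counts at p under 0.001. With those sums, all but AT1G25440 passed at an adjusted MARS p under 0.05 (Benjamini-Hochberg). COL4 also fell with such sums when each isogroup was counted once (80 and 31 reads). COL4 had 7 isogroups, of which the 3 largest were at 31 and 8, 22 and 11 and 16 and 2 reads. Other B-box genes, chosen after their values were seen, were not called with any of the 5 totals. COL1 had 33 and 24 reads and STO 30 and 22, 1.03-fold and 1.02-fold lower, and STH had 17 and 9. COL2 had 9 and 9, LZF1 7 and 11 and AT4G38960 13 and 19, all higher after division by the sums of gene counts.

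**Figure D4:**
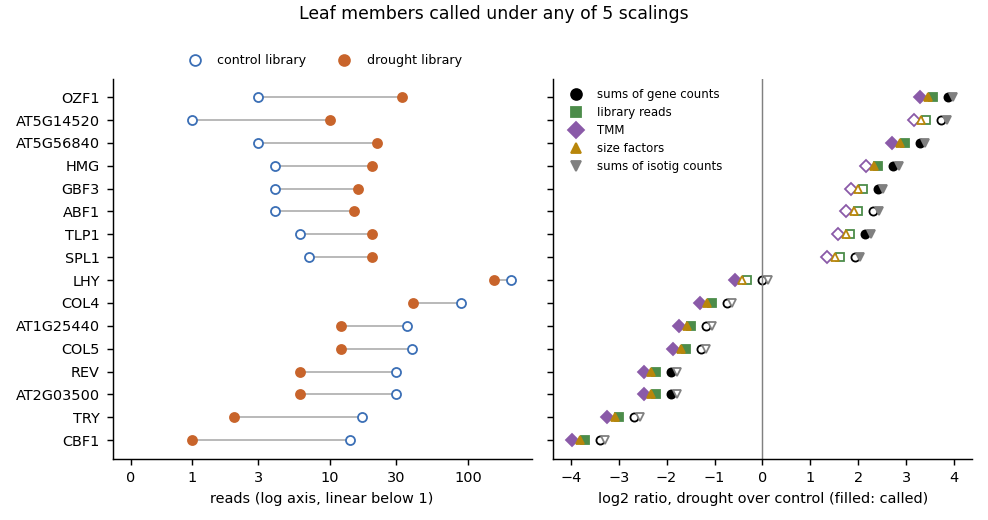
Left, reads of the leaf control (open) and leaf drought library (filled) for the 16 members called under at least 1 of 5 library totals, on a log axis that is linear below 1. Right, the log2 ratio of drought to control with each total, filled where the member was called. OZF1 and AT5G56840 are filled throughout, and the B-box genes COL4, COL5 and AT1G25440 with 3 of the 5 totals.

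LHY had the most reads of all leaf members, with 206 control and 154 drought reads, 1.01-fold lower (0.81 to 1.25). It passed as lower with TMM alone of the 5 totals. With the sums of gene counts, the most-read members of the remaining leaf families were not called either, though some held more drought than control reads. ARF2 had 36 and 28 reads, KNAT3 (AT5G25220) of the homeodomain group 32 and 28, BZIP53 (AT3G62420) 31 and 23, RAP2.4 29 and 34, PAT1 27 and 12, FBH4 (AT2G42280) of the bHLH group 23 and 15, NAC2 16 and 26 and GTA2 11 and 23. SIGA (AT1G64860) led the plastid sigma factors, which direct the bacterial-type RNA polymerase of chloroplasts, with 24 and 18 reads. The smaller groups were led by HMGB2 (19 and 15), TLP7 (15 and 16), SVP (AT2G22540, 14 and 10), NLP7 (AT4G24020, 13 and 14), HSL1 (11 and 14), WRKY33 (10 and 7), SPL1 (AT2G47070, 7 and 20), LIL3:1 (AT4G17600, 6 and 12), HSF3 (AT5G16820, 5 and 10), NF-YC4 (AT5G63470, 1 and 8) and ASIL2 (0 and 4).

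Some members are best known from drought and abscisic acid signalling in Arabidopsis. Those picked here for their names, after the values were seen, mostly had few reads. HB-7, ATAF1, HSFC1 and DREB1A were set aside, so this follows in part from the choice of members. HB-7 had 11 control and 45 drought reads in roots and 3 and 48 in leaves. ATAF1 had 45 and 97 and 28 and 58, and both genes rose in both tissues. DREB1A had 8 and 4 reads in roots, not called, and 34 and 2 in leaves, where it fell. DREB2A (AT5G05410), an activator of dehydration genes, had 12 control and 15 drought reads in roots and 5 and 6 in leaves, and in both tissues its interval included no difference (0.62 to 3.31 and 0.41 to 6.62). ABF3 (AT4G34000), a bZIP factor that binds abscisic acid response elements, had 11 and 11 reads in roots. ABF1 (AT1G49720), of the same kind, had 2 and 6 reads in roots and 4 and 15 in leaves, 3.39-fold (0.61 to 34.4) and 4.99-fold higher (1.59 to 20.7), below the threshold in both. In leaves ABF1, like SPL1 and AT5G14520, passed as higher with the sums of the isotig columns alone of the 5 totals. CBF1 had 2 and 0 reads in roots, too few for a call at this depth, beside its 14 and 1 in leaves. WRKY40 (AT1G80840), a repressor of abscisic acid and defence responses, had 21 and 5 reads in roots, 3.71-fold lower (1.36 to 12.6), and 8 and 2 in leaves. Among the regulators of the unfolded protein response, BZIP60 (AT1G42990) had 11 and 4 root reads and BZIP17 (AT2G40950) 13 and 28, neither called.

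The members with a chromatin role had fewer reads in leaves, where 23 were measured and 0 were called. With at least 10 reads, 6 were higher and 4 lower there (1850 and 1121 over all leaf genes), with a median log2 ratio of 0.70 against 0.49 over all leaf genes. SWN (AT4G02020), a histone methyltransferase of the Polycomb group, had 2 and 11 reads in leaves and 13 and 22 in roots. MBF1A (AT2G42680), a bridging coactivator, had 3 and 12 and 7 and 19. Both genes, chosen after their values were seen, had more drought than control reads in each tissue, and neither was called. The auxin group, which was mostly lower in roots, had 7 higher and 3 lower in leaves, with a median of 0.63, and the ERF group had 4 and 5 with a median of 0.00.

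Of the 237 members measured in both tissues, 2 were called in both: OZF1 rose in roots and leaves, and TLP1 fell in roots and rose in leaves. Over all 5500 genes measured in both, 120 were called in both. Of these, 84 rose in both, 18 fell in both and 18 went in opposite directions. The tissues were assembled separately, so a gene is the same here only by its Arabidopsis match. Among the 87 members with at least 10 reads in each tissue, 51 (58.6%) had log2 ratios of the same sign in both, and among all genes 60.1% of 1991 had. The drought effects were compared by the difference of the 2 log2 ratios with the counting variance of the 4 counts (Benjamini-Hochberg over 5500 genes, adjusted p under 0.05). The difference passed for 4 of the 237 members and for 228 of the 5500 genes (4.15%), so the share was smaller among the members.

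TLP1 had the smallest p of the 4, with a log2 difference (leaf minus root) of 4.34 ± 0.81 (SE from counting) and an adjusted p of 1.55e-05. TLP1 passed with TMM totals and with the isotig with most reads alone. It also passed when a coefficient of variation of 0.2 between pots was assumed, but not at 0.4 (adjusted p = 0.664). That variation was taken as independent in each of the 4 libraries. DEAR3 had 45 and 4 reads in roots but 0 and 7 in leaves, a difference of 7.48 ± 2.22 (adjusted p = 0.0246). EIL1 (AT2G27050), a close relative of the ethylene regulator EIN3, had 33 and 15 reads in roots and 12 and 23 in leaves, and differed by 2.26 ± 0.67 (adjusted p = 0.0246). In leaves its 2 isogroups were at 4 and 19 and at 8 and 4 reads. CZF1 had 36 and 3 reads in roots and 12 and 10 in leaves, a difference of 3.37 ± 1.01 (adjusted p = 0.0257). DEAR3, EIL1 and CZF1 did not pass with TMM totals (adjusted p of 0.0667, 0.185 and 0.123). In all 4 genes the leaf ratio was the higher one. The median log2 ratio over all genes with at least 10 reads was itself higher in leaves, at 0.49 against 0.02 in roots.

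**Figure D5:**
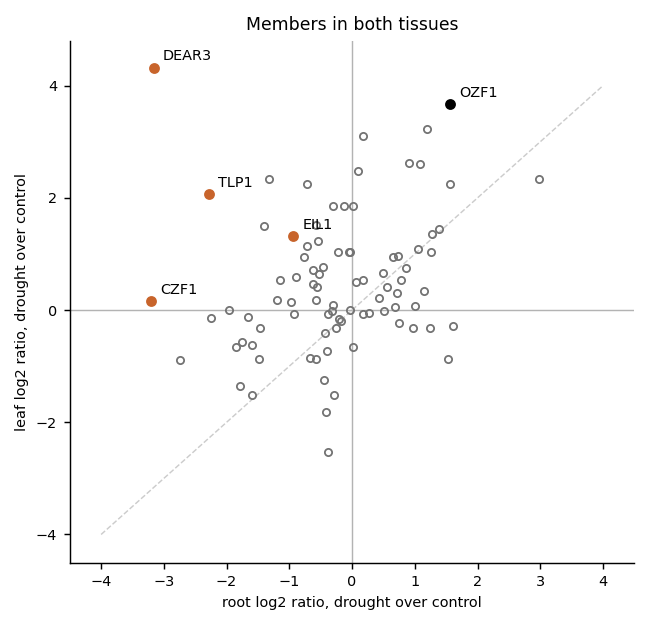
Log2 ratio of drought to control in roots (horizontal) and leaves (vertical), with 0.5 added to each count, for the 87 members with at least 10 reads in each tissue (open); the dashed line marks equal ratios. Filled orange points are the 4 members whose ratios differed between the tissues (DEAR3 had only 7 leaf reads), and the black point is OZF1, which rose in both.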

How the data were processed

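Pyrosequencing (Roche GS FLX Titanium) of 4 cDNA libraries was followed by assembly within each tissue (GS De Novo Assembler), and the authors deposited, per isotig, the read count of each library, the BLAST match with its percent identity and the Gene Ontology categories. The members and the lists of families and markers were chosen with earlier results of these data known. For each gene, the isotig with most reads was taken per isogroup and the counts were summed. The MARS model of DEGseq was written in Python 3.11.15 (numpy 2.4.6, scipy 1.17.1, pandas 2.3.3), with a count of 0 set to 1 and the sums of gene counts as totals, and tested on simulated data. Families followed Arabidopsis symbols, or the annotated domain. The text names all called leaf members, the 15 called members with the smallest p in each direction in roots, the most-read member of each family, members that differed between tissues and members with opposed isogroups. RAP2.9, NF-YB3, AT1G05805, NAC082, ERF-1, LSD1, ERF9, IDD2, the genes called only under other settings, and those marked in the text were named after their values were seen. Intervals are exact (Clopper-Pearson, 95%), conditional on the sum of the 2 counts. Alternatives used edgeR 4.0.16 (TMM, and its exact test with an assumed coefficient of variation) and DESeq2 1.42.0 size factors in R 4.3.3. Before assembly, the control and drought libraries had 305731 and 300665 reads (roots) and 319997 and 299134 reads (leaves). The authors' log2 ratios, z-scores, p and q values, and the singletons, were not used. Chromosome positions were not analysed here.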

Additional observations from a re-analysis of the deposited data

Results flagged for a closer look

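The drought effect differed between roots and leaves for 4 members by a test of the difference itself, which compares single libraries and counting error only. The log2 difference, leaf minus root, was 4.34 for TLP1, 7.48 for DEAR3, 2.26 for EIL1 and 3.37 for CZF1. TLP1 shares 53 of its 57 root control reads with an isogroup that also counts for TLP10, and DEAR3 rests on 7 leaf reads.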

How the results depend on the processing

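No paired analysis was possible because each tissue and condition has 1 library, and no replicate could be left out. With the edgeR exact test and an assumed coefficient of variation of 0.2 between pots, 3 members rose and 13 fell in roots and 2 rose and 0 fell in leaves, and at 0.4 these were 0 and 1 (RGL1), and 1 (OZF1) and 0. RGL1 in roots and OZF1 in leaves were called under all 16 alternatives run on genes, and AT1G58110, EPR1 and NAC2 in roots and GBF3 in leaves under 7 of them. Benjamini-Hochberg adjustment at 0.05 gave 24 up and 35 down in roots and 18 and 6 in leaves, and at 0.001 it gave 4 and 13, and 2 and 0. Over all genes it gave 550 and 692 of 9199 in roots and 601 and 242 of 7012 in leaves at 0.05. At 0.001 these were 199 and 286, and 201 and 125. In roots 8 members rose with the library reads and with size factors (26 fell with either) and 7 with the sums of isotig columns (30 fell). The leaf counts with other totals, given above, were 3 and 7 (library reads, size factors), 2 and 8 (TMM) and 8 and 0 (sums of isotig columns). The sum of all isotigs gave 38 members that fell in roots, and 30 that rose and 1 that fell in leaves, and turned the log2 ratio of LHY in leaves to 0.40. Over all genes this sum gave 682 that fell in roots, and 906 that rose and 175 that fell in leaves. Fisher's exact test gave 0 members that fell in leaves, against 168 over all leaf genes. The median relative to all genes was -0.11 in roots at an E-value cutoff of 1e-20, -0.20 in leaves with a minimum of 20 reads, and -0.16 in roots and -0.21 in leaves with each isogroup counted once. Members that differed between tissues numbered 6 with a minimum of 10 reads in each tissue (TLP1, EIL1 and CZF1, with PAP2, HAT14 and AT5G56840 added and DEAR3 not tested), 1 with TMM, 2 with the isotig with most reads alone, and 1 and 0 with a coefficient of variation of 0.2 and 0.4. The cause of these differences was not tested. With the isotig with most reads alone, SCL3, IDD2, LSD1, ERF-1, NF-YB3, ERF73 and others lost their calls. Under the remaining alternatives tried for each, these counts stayed within 1.5 times and the medians within 0.1. Members with under 12 reads in roots or 11 in leaves could not be called.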
